A study of Mus musculus with 4 samples.

Results

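The miRNAs described here are the mouse miRNAs with a number of 5000 or more after miR in their name, as they appear in a table of known miRNAs from the medial prefrontal cortex. They were chosen by this number alone, and they make up 269 of the 1038 miRNAs in the table, with numbers from 5099 to 9769. Small RNA was sequenced in 4 libraries, 2 from control mice and 2 from mice under chronic unpredictable mild stress (CUMS). All mice were juvenile males of the strain C57BL/6 (C57BL/6J in the methods of the study), and the RNA came from both sides of the medial prefrontal cortex of each mouse. The CUMS mice were isolated and met tilted, empty or damp cages, restraint, noise, strobe light and shifted light cycles over several weeks. As a limit of the model, only those CUMS mice that changed in all of the sucrose preference, Y-maze and forced swimming tests were used. The control mice lived without these stressors. The comparison of the groups asks which small RNAs differ in this cortical area in the depression-like state.

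miRNAs are short RNAs that pair with messenger RNAs, mainly through a seed near their 5′ end, and lower the output of those messages. Their numbers largely follow the order in which they were registered, so the highest numbers mostly belong to late entries of the registry. Most miRNAs are cut from a hairpin by the enzymes Drosha and Dicer, and either arm of the hairpin, 5p or 3p, can be retained. A mirtron is a hairpin that is made by splicing in place of Drosha, with both of its ends at the ends of a short intron. In a tailed mirtron only the 3′ or the 5′ end lies at an intron end, and the rest of the intron is trimmed away. Introns end in the bases AG, so the 3p arm of a mirtron often ends in AG as well.

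Mature sequences are given here as RNA from 5′ to 3′, to show which molecules the levels below belong to. They are those of the most abundant members and of those that passed the cut-offs of the study in the comparison below. Added are miR-7080-5p and miR-6540-3p, from the hairpins with both arms well read. The authors counted reads that overlap a mature sequence and allowed their ends to differ from it, so a count can include reads with other ends. The sequences were read from RefSeq on the build GRCm38.p6, in which 236 of the 269 members were matched by name. The capitals mark the seed, bases 2 to 8.
miR-8111: aCCGGGCAugguaguguacac
miR-6896-5p: uUUGUAGGcgacgagaacccgu
miR-6944-3p: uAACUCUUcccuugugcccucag
miR-7015-3p: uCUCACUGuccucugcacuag
miR-7019-3p: uCACCUUGgccgccucucugcag
miR-7080-3p: cAGGCUCAccccuccguucccu
miR-7080-5p: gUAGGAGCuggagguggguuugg
miR-7236-3p: uUGGACCGcacagauuuagacc
miR-7068-3p: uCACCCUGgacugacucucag
miR-7240-5p: uUGGAGAGgaccgccgucgga
miR-7688-5p: uAGCUGGGcaugaucugaugagc
miR-6540-3p: uCUGAAGCuugcuuaccucca
miR-7117-5p: uCUGGGGGcucagcugaggaua
miR-7664-3p: uCUCUUAGgcuggguuaacuaau
The other abundant members, miR-7220-5p and miR-6540-5p, are named only.

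The table gives a mean per group, and the reads of each library were recovered from these means. Libraries are named a and b within each group, because they could not be tied to replicate numbers. Depth was 9589323 to 10783592 reads on known miRNAs. Control library b stood apart from the other 3 in miRNAs of epithelium: 10 miRNAs of the miR-200 and miR-183 families took 9.32% of its reads, against 0.0393% to 0.0722% elsewhere. These 10 were listed after that library was seen to differ. Neuronal miRNAs (miR-124-3p, miR-9-5p and miR-128-3p) summed to 694641 to 934408 normalized counts in all 4 libraries. The liver miRNA miR-122-5p was at 0 in control and at 0.942 and 1.06 under CUMS, below the floor of 3 reads. The marker sums of 2 other cell types did not overlap between the groups. Oligodendrocyte miRNAs summed to 7693 and 8173 in control against 6011 and 7154 under CUMS, and muscle miRNAs to 226 and 348 against 194 and 197. The sums of neurons, red blood cells, endothelium, microglia and leukocytes, and epithelium overlapped. Of single miRNAs with 5 or more reads in some library, 33.8% did not overlap. The part of these cell types in the differences of the members was not tested. The labels do not say whether the libraries came from separate mice, so p-values measure the spread between these libraries only.

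Most of the members were near the limit of detection. Of the 269, 111 (41.3%) had 5 or more reads in some library, and 42 (15.6%) had that many in every library. The other 158 had at most 4 reads in each library, 87 members were seen in a single library, and 43 had 1 read in all libraries together. Their median normalized count, the reads divided by the library's size factor and averaged over the groups, was 1.47, against 9.92 over all 1038 miRNAs. The normalized count was under 5 for 209 members, from 5 to 50 for 45, and at least 50 for 15. Their highest normalized count was 454.

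Among the miRNAs of the table, the share with 5 or more reads was lower in each higher class of numbers. Every miRNA in the table had at least 1 read in some library. The shares are thus of miRNAs already read, and miRNAs of the registry without a read are not counted. A library with 5 or more reads was found for 82.7% of the 602 miRNAs numbered under 1000, for 66.7% of 69 from 1000 up to 3000, for 59.0% of 78 from 3000 up to 5000, and for 41.3% of the 269 members. The median normalized counts of these classes were 54.5, 6.12, 4.32 and 1.47 in the same order. On either side of the limit, miR-5099 was the member with the lowest number, with 4 and 4 reads in control against 15 and 3 under CUMS. The miRNA with the highest number under 5000, miR-3572-3p, had 3 reads in control library a and 0 in the others.

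**Figure D1:**
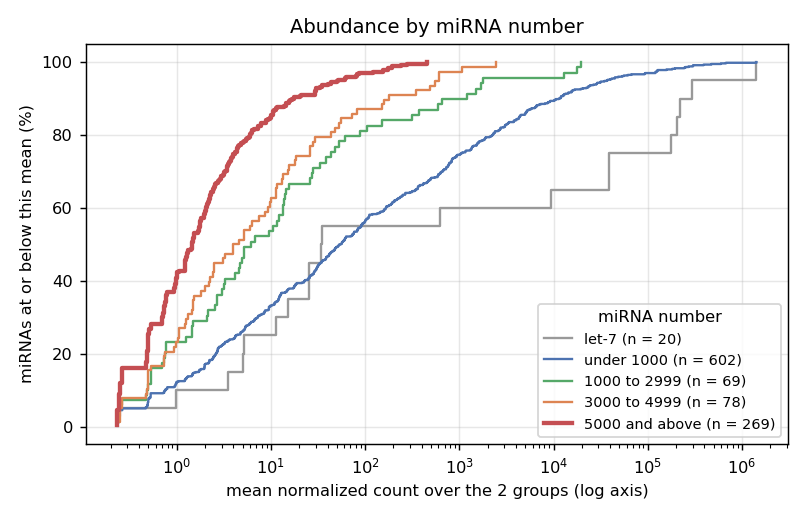
Share of the miRNAs of each number class (vertical axis, percent) at or below a mean normalized count (horizontal axis, log scale, mean of the 2 groups). Each line is a class, and the line of the 269 members lies leftmost over most of the range, with its highest member at 454.

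The members took a small part of every library. Their share of the reads on known miRNAs was 0.0305% in control library a (95% Wilson interval 0.0294 to 0.0315) and 0.0285% in control library b (0.0275 to 0.0295). It was 0.0346% in CUMS library a (0.0334 to 0.0357) and 0.0323% in CUMS library b (0.0312 to 0.0335). The shares of both CUMS libraries thus lay above those of control, while the member reads themselves, 3208 and 3071 in control against 3603 and 3099 under CUMS, overlapped. With the 10 epithelial miRNAs left out of the totals, control library b rose to 0.0314%, control library a was at 0.0305%, and the CUMS libraries were again higher, at 0.0346% and 0.0323%. An exact permutation test of 2 libraries against 2 cannot give a two-sided p below 0.333, so the share was not tested. The intervals cover counting error only, since reads copied by PCR are not independent molecules.

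A few members carried most of the 12981 member reads. The most abundant, miR-7220-5p, held 14.1% of them, the 5 most abundant held 41.8%, and the 12 most abundant held 65.6%. miR-7220-5p stood at rank 224 of all miRNAs in the table with a normalized count of 454. It had 405 and 339 in control against 518 and 556 under CUMS. The 2 groups were apart, with CUMS the higher. The group means were 372 ± 46.7 in control and 537 ± 27.1 in CUMS (SD, n = 2), and the edgeR log2 fold change of 0.49 (adjusted p = 0.849) did not pass. In bulk tissue, fewer cells of a type and less RNA per cell cannot be told apart, here and in the values that follow.

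The next member, miR-8111, had normalized counts of 267 and 251 in control against 308 and 299 under CUMS. Its precursor lies on the plus strand at chr8:84005628-84005764, outside annotated genes of that strand. Its groups did not overlap, but the difference was small, 0.19 on the log2 scale (edgeR adjusted p = 0.912). miR-6896-5p comes from an intron of Dst, which encodes the cytoskeletal linker dystonin. It had 201 and 229 in control against 302 and 231 under CUMS, so that the lower CUMS library was just above the higher control library.

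miR-6944-3p comes from a hairpin that fills an intron of Dbn1, the gene of drebrin, an actin-binding protein of dendritic spines. It went the other way, with normalized counts of 201 and 252 in control against 162 and 154 under CUMS. The groups were apart, with CUMS the lower. The group means were 226 ± 36.3 and 158 ± 5.88 (SD, n = 2), and the edgeR log2 fold change was -0.55 (adjusted p = 0.849), under the fold of 1.5.

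Other abundant members overlapped between the groups. miR-7019-3p, from an intron of Pink1, a kinase of mitochondrial quality control, had 156 and 157 in control against 171 and 143 under CUMS. miR-7015-3p, from Smap2, a regulator of Arf GTPases, had 162 and 183 in control against 202 and 154 under CUMS. The control values of both fell between the CUMS values, and the edgeR log2 fold changes were -0.02 and 0.01. miR-6540-5p overlapped as well, with 170 and 209 against 178 and 149. The range of miR-7236-3p, from an intron of the GTPase gene Rab40b, was 80.0 to 89.4 over all 4 libraries.

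Among the remaining members of the 12, miR-7080-3p had 121 and 148 in control against 112 and 109 under CUMS, with no overlap and a log2 fold change of -0.32 (edgeR adjusted p = 0.849). miR-7688-5p had 67.5 and 76.0 in control against 59.3 and 49.8 under CUMS, again without overlap (edgeR log2 fold change -0.43, adjusted p = 0.849). miR-7068-3p varied widely within a group, with 104 and 54 reads in the CUMS libraries and 97 and 77 reads in the control libraries.

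**Figure D2:**
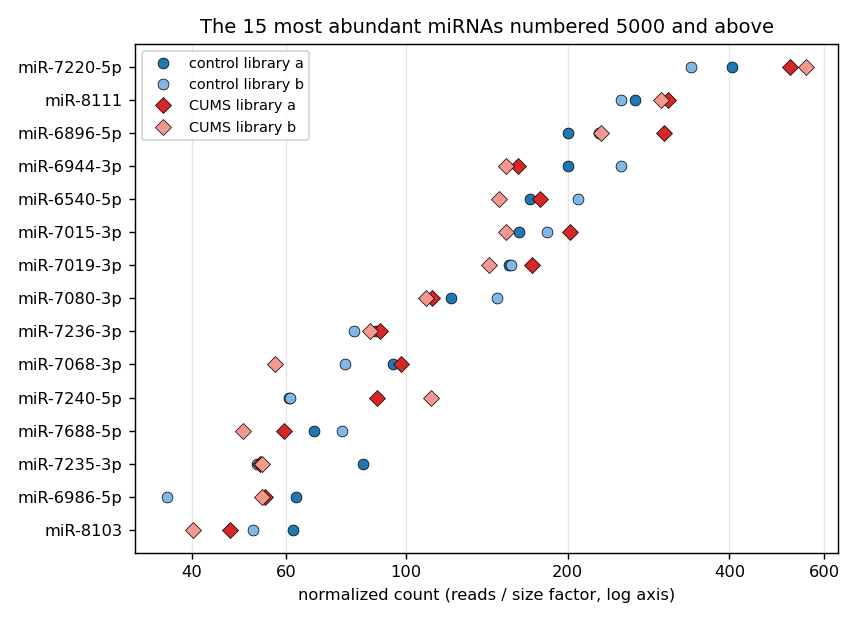
Normalized count (horizontal axis, log scale) of the 15 most abundant members in each of the 4 libraries; circles are control and diamonds are CUMS libraries. miR-7220-5p is highest in every library, and its CUMS libraries, at 518 and 556, lie to the right of its control libraries.

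The groups were compared with edgeR's quasi-likelihood test on the recovered reads of the 719 miRNAs that reached 5 reads in some library, and 111 of these were members. The criteria were the cut-offs of the study, a fold above 1.5 with an unadjusted p below 0.05, though its p came from DESeq. By them 3 members passed in edgeR (2.70%), against 3.34% of all miRNAs tested. In the single directions, 2 members (1.8%) were higher in CUMS, against 0.556% of all miRNAs tested. Only 1 (0.901%) was lower, against 2.78%. After adjustment over all miRNAs tested no member and no other miRNA passed, by edgeR (30 had an unadjusted p below 0.05, 4 of them members) or by DESeq2. By the same criteria DESeq2 called 1 member (0.901%), against 2.50% of all miRNAs tested. With a library left out, and so 3 in the fit, 0 members passed without control library a, and 1 passed without each of the other libraries in turn, control library b included. The libraries of the 2 groups did not overlap for 41 members (36.9%), against 33.8% of all miRNAs tested. CUMS was above for 26 members (23.4% of those tested), against 16.7% of all miRNAs tested, and below for 15 (13.5%), against 17.1%. The mean was higher in CUMS for 57.7% of the tested members and for 52.3% of all, and their median log2 fold changes were 0.10 and -0.02.

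Of the members that passed, miR-7240-5p had the most reads. Its normalized counts were 60.6 and 61.0 in control against 88.5 and 111 under CUMS. The groups were apart, with CUMS the higher and the control libraries close together. The means were 60.8 ± 0.234 and 99.9 ± 16.1 (SD, n = 2), a log2 fold change of 0.68 (edgeR adjusted p = 0.849). DESeq2 gave 0.71 with a standard error of 0.44 and did not call it, and without CUMS library b, control library a or control library b it was not called by edgeR either. The log2 ratio of its group means was 0.72, and in these 3 cases it was 0.54, 0.71 and 0.72. Its precursor lies outside annotated genes of its own strand at chr8:70798135-70798192. The study listed this miRNA from the same libraries, so its values are not independent evidence.

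miR-7664-3p was the member that was lower in CUMS. It had 16 and 15 reads in control against 4 and 5 under CUMS. The groups did not overlap, and the log2 fold change was -1.77 (edgeR adjusted p = 0.849). DESeq2 gave -1.77 with a standard error of 1.17 and no call, and edgeR did not call it when any of the 4 libraries was left out. The log2 ratio of its group means was -1.76, and it was -2.02 to -1.53 with a library left out. It lies in an intron of Nsmf, whose protein carries signals from NMDA receptors to the nucleus.

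miR-7117-5p had 0 reads in either control library but 12 and 6 under CUMS. Set against a floor of 3 reads in each control library, its mean of 8.83 in CUMS was at least 2.98-fold higher. It was called by edgeR (adjusted p = 0.849) and by DESeq2, and the edgeR call was lost without control library a or CUMS library a. Its precursor ends at the 3′ end of an intron of Ank, a gene of pyrophosphate transport. In all, 51 members had reads in CUMS only and 50 in control only. After miR-7117-5p with 18 reads, the next of the former had 7 reads, and the highest of the latter, miR-7031-5p, had 8.

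miR-6240, also listed by the study from these libraries, had 8 and 3 reads in control against 8 and 22 under CUMS. The groups overlapped, and a single CUMS library gave the higher mean (edgeR log2 fold change 1.44, adjusted p = 0.849). Although on the study's list, miR-6240 did not pass in edgeR. Of the members that passed, miR-7664-3p and miR-7117-5p are not on that list.

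**Figure D3:**
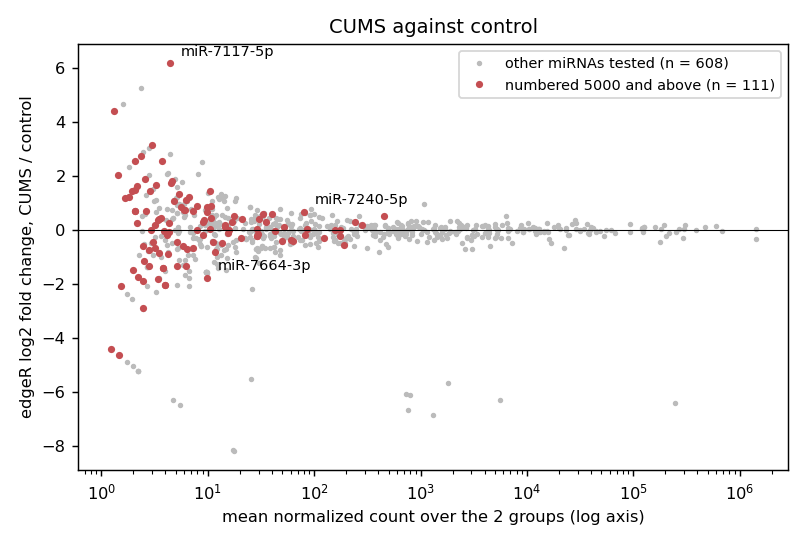
edgeR log2 fold change of CUMS over control (vertical axis) against the mean normalized count (horizontal axis, log scale) for the 719 miRNAs tested, with the 111 members in red. The named points are the 3 members that passed; among members with counts under 10 the fold changes spread widely, and above 100 they lie between -0.55 and 0.49.

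The precursors of the members lay at intron ends far more often than those of lower numbered miRNAs. Positions on GRCm38 were known for 195 hairpins of the members. Of these, 119 (61.0%) had their 3′ end within 2 bases of the 3′ end of an annotated intron on the same strand, and 115 of the 119 matched to the base. Among 418 precursors of the lower numbered miRNAs, 20 (4.78%) did so. The share was 0.974% for numbers under 1000, 11.9% from 1000 up to 3000 and 21.8% from 3000 up to 5000. Of the 119, 6 (3.08% of the 195) lay at both ends of their intron, as a mirtron does, and 113 (57.9%) at the 3′ end alone. A further 4 lay at a 5′ intron end, 27 elsewhere in an intron, 30 over an exon and 15 outside genes. The exon class holds any other precursor that overlaps an exon, also those that run 5 to 7 bases past an intron 3′ end. Only genes on the strand of the precursor were examined, so a precursor outside genes may lie opposite a gene.

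**Figure D4:**
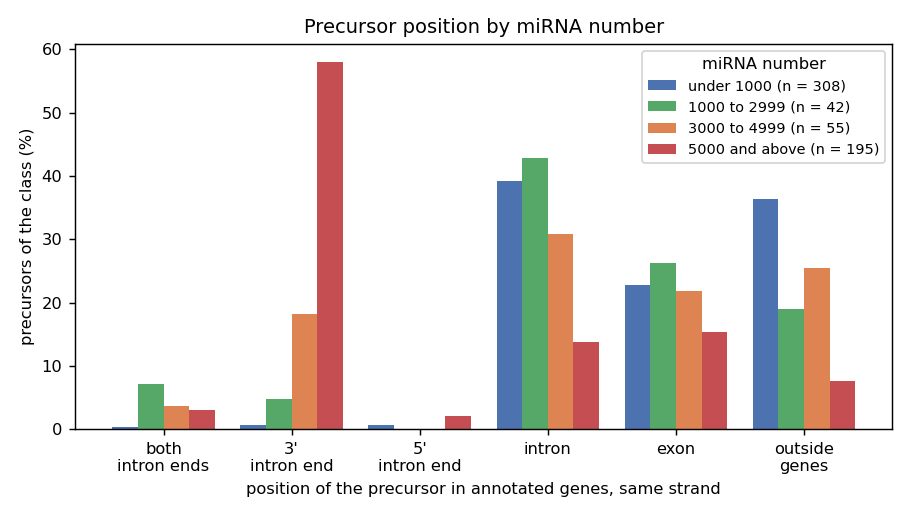
Share of precursors (vertical axis, percent) in each position class, by number class of the miRNA. The bar for the 3′ intron end is 57.9% in the members and 18.2% or less in the lower classes.

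These hairpins were concentrated in a narrow range of numbers. Of 116 precursors numbered at least 6900 and under 7100, 108 (93.1%) lay at an intron 3′ end, and of the other 79 members' precursors 11 (13.9%) did. This range was chosen after the positions were seen. Those within genes lay in 179 different hosts, and 178 of the 195 were in protein-coding genes. Srebf1, a regulator of lipid synthesis, was the gene that held 2 of them, miR-6921 and miR-6922, at 1 to 9 reads per mature miRNA. The precursors at intron 3′ ends were short, with a median of 65 bases, against 84 bases for the precursors of lower numbered miRNAs.

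**Figure D5:**
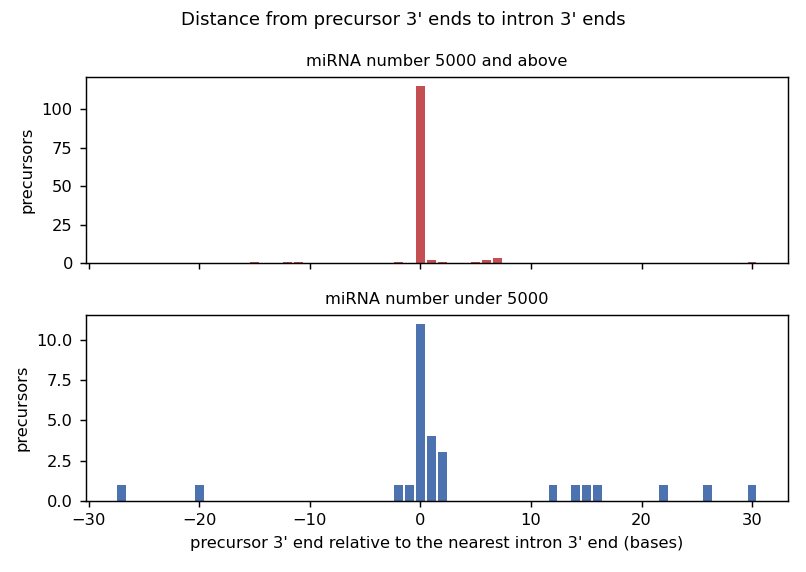
Number of precursors (vertical axis, with a different scale in each panel) by the distance in bases from the precursor's 3′ end to the nearest intron 3′ end, up to 30 bases. The members' distances fall almost wholly on 0, where 115 precursors stand.

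The ends of the mature sequences followed the intron ends. Of 63 precursors at an intron 3′ end with a 3p arm in the table, 45 had a 3p arm that stopped at the last base of the intron, 13 stopped 1 or 2 bases before it and 5 stopped 3 or more bases before it. A 3p arm ending in AG was found for 48 of the 91 members with a 3p sequence (52.7%) and for 28 of 317 other 3p arms (8.83%). An end in CAG was found for 44.0% and 4.42%. In the 5p arms an end in AG was found for 4.17% of the members and 6.71% of the others. Because introns end in AG, the ends of the members' 3p arms largely repeat the positions above. They come from registered sequences and not from reads of these libraries. To show these ends, some 3p arms from intron ends follow with their last 3 bases in capitals. They were picked after the sequences were seen, with miR-7080-3p as a case that does not end in AG.
miR-6944-3p: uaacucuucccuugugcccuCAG
miR-7015-3p: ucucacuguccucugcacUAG
miR-7019-3p: ucaccuuggccgccucucugCAG
miR-7068-3p: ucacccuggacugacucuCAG
miR-7226-3p: ugacacagccauucucugagCAG
miR-6899-3p: uuguccuucugugucuucugCAG
miR-7080-3p: caggcucaccccuccguucCCU
The members were also richer in G and C, with medians of 54.5% in 3p arms and 56.5% in 5p arms, against 50.0% and 47.8% in the other miRNAs.

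The 6 hairpins with both ends at intron ends, the position of a mirtron, held many reads for their number, nearly all in 3 of them. Their 9 mature members held 1744 reads (13.4% of all member reads), and 1612 of these were on 3p arms. miR-6944 in Dbn1 spans chr13:55477681-55477776, miR-7080 in the copine gene Cpne7 spans chr8:123130106-123130172, and miR-7068 in Cherp, a protein of the endoplasmic reticulum, spans chr8:72470016-72470089. The other 3 were rare. miR-6958-3p in Dennd6b had 2 and 5 reads in control against 0 and 3 under CUMS. miR-7060-5p in Fbrs had 1 and 0 in control against 1 and 6 under CUMS, and miR-7018-3p in the perlecan gene Hspg2 had 0 and 2 in control and 0 in CUMS.

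The 142 members from precursors at the 3′ intron end alone held 4683 reads (36.1%), 15 members outside genes held 2004 (15.4%), and 29 elsewhere in introns held 1079 (8.31%). The 33 members that were not matched by name, and so were not placed, held 2895 (22.3%). Some of them are arms of hairpins that were placed by the other arm. Among these, miR-6540-5p had 713 reads, and its hairpin lies in an intron of Gap43. The shares of the position classes leave such arms out. By annotation on the same strand, 3 precursors overlapped genes of other small RNAs. Likeness of sequence to such RNAs was not examined, so other cases can be missed. The best read of the 3 was miR-6516 in the noncoding host Snhg20. Its 5p arm had 39 and 48 reads in control against 34 and 51 under CUMS. miR-5121, over Snord33, had 1 or 2 reads per library, and miR-7650-5p had 1 read in all. The authors removed reads that matched such RNAs before they counted, and the effect of this on these members was not tested.

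The 5p and 3p arms took similar shares of the member reads. There were 135 members of the 5p arm with 5877 reads (45.3%), 107 of the 3p arm with 5530 (42.6%), and 27 without an arm in the name with 1574 (12.1%). In 53 hairpins both arms were in the table, and in 24 of these an arm had a normalized count of at least 5. The 3p arm was the higher in 14 and the 5p arm in 10, and in 20 of the 24 the same arm was the higher in all 4 libraries.

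The opposite arms of several abundant members held few reads. Over the 4 libraries together miR-7220 had 1828 reads on 5p and 6 on 3p, miR-6944 had 774 on 3p and 3 on 5p, and miR-7240 had 322 on 5p and 1 on 3p. miR-7015 had 709 reads on 3p and 6 on 5p, and miR-7019 had 633 and 7. In each of these hairpins the same arm was the higher in every library of both groups.

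Both arms reached a normalized count of 5 in 2 hairpins. For miR-6540 the 5p arm was above the 3p arm in every library, and the 3p arm had 29.3 and 34.0 in control against 48.0 and 48.7 under CUMS. This hairpin lies in an intron of Gap43, the gene of the axonal growth-associated protein. It was placed by its 3p arm, because the 5p arm was not matched by name. The 3p arm did not overlap between the groups (edgeR log2 fold change 0.57, adjusted p = 0.849), while the 5p arm did. For miR-7080 the 5p arm had 28.4 and 34.0 in control against 29.2 and 25.4 under CUMS, below the 3p arm in every library.

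Of 2 further members, miR-5617-3p at a 5′ intron end of Syn1, the gene of the synaptic vesicle protein synapsin, had 9 and 10 reads in control against 8 and 9 under CUMS. miR-6899-3p in Klf7, a transcription factor of axon growth, had 31 and 27 in control against 24 and 35 under CUMS. Both overlapped between the groups. Both were chosen after their values were seen.

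Seeds were seldom shared. The 236 members with a sequence had 228 different seeds. Only 14 of them shared a seed with a lower numbered miRNA, and 3 such pairs, picked after their values were seen, are shown because molecules with a common seed can pair with the same sites. The lines give members and the lower numbered miRNAs with the same seed in capitals.
miR-5129-3p: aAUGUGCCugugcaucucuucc
miR-455-5p: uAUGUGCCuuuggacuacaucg
miR-6240: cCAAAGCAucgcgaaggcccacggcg
miR-330-3p: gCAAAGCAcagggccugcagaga
miR-7670-3p: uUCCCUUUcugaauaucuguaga
miR-204-5p: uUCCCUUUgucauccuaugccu
The members were the rarer partner in these pairs. The precursor of miR-5129-3p lies in the transcription factor gene Zeb2 and runs 5 bases past an intron 3′ end. miR-5129-3p had mean normalized counts of 14.8 in control and 19.0 in CUMS, against 31.6 and 31.1 for miR-455-5p. miR-6240 had 5.41 and 15.4, against 669 and 679 for miR-330-3p. miR-7670-3p had 1 read in all, against mean normalized counts of 19406 and 14241 for miR-204-5p. Among the members themselves miR-7068-3p shared its seed with miR-7018-3p, which also fills its intron and had 2 reads in all, against 332 for miR-7068-3p.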

How the data were processed

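Small RNA of the medial prefrontal cortex was sequenced from control and CUMS mice, 2 libraries each. The authors cleaned the reads, took out those that matched other classes of noncoding RNA, aligned the rest to miRBase precursors without mismatch and counted them per mature miRNA. The submitters' processing notes name Bowtie, DESeq and mm10. The signal deposited by the authors is a group mean of read counts, each scaled by its library's DESeq size factor. The authors also deposited a ratio of the group means (fold change), its log2 value and p-values of their DESeq comparison; these columns were not used. The columns carry no group names and were read as control and CUMS from how the study prints them.

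Whole reads per library were recovered by writing each group mean as a sum of 2 whole numbers, each times its own step. All values (100%, relative residual under 1e-09) of the 1038 miRNAs came out whole in both groups. For 2 control miRNAs, both not members, another pair was nearly as close. The size factors of the 2 CUMS libraries differ too much for a single step: tested with 1 step, the CUMS means were not whole multiples, so the count test rests on the solution with 2 steps, and not on deposited counts. Size factors recomputed from the recovered reads equalled those in the steps. Depth was 9589323 to 10783592 reads per library, and 3 reads were taken as the floor.

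edgeR 4.0.16 (TMM, quasi-likelihood test, miRNAs with a library of 5 or more reads) and, as an alternative, DESeq2 1.42.0 (Wald test) were run in R 4.3.3 on all miRNAs with group as the factor, after tests on simulated data. p-values were adjusted by the Benjamini-Hochberg method over all miRNAs tested. Precursors were placed with RefSeq, or else with GENCODE M21 (GRCm38), whose introns were used; 184 came from the former and 11 from the latter. Tables were made in Python 3.11.15 (scipy 1.17.1, pandas 2.3.3, numpy 2.4.6; plots by matplotlib 3.10.9). Members named are the 12 most abundant, those past the criteria, the opposite arms of both, members listed by the study, those at the number limit, hairpins with both arms at 5 or more, and the leading hairpins at both ends of an intron; others were chosen after their values were seen. The members and lists were chosen with earlier results of these data known. Alternatives were other filters, size factors, thresholds and end tolerances, and leaving out each library.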

Additional observations from a re-analysis of the deposited data

How the results depend on the processing

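The count of 111 detected members depended on the definition: 269 had at least 1 read, 61 had at least 10 reads in a library, 42 had at least 5 reads in all 4 libraries, and 99 to 103 were left when a library was left out. The mean share of reads, 0.0315% ± 0.00259 (SD, n = 4), was 0.0793% without the 10 most abundant miRNAs in the total, because the total is then smaller, and 0.0322% without the 10 epithelial miRNAs, an alternative chosen after seeing the data. It was 0.0304% to 0.0324% without a library. The 3 calls became 1 with DESeq2 (miR-7117-5p) and 0 to 1 without a library: 0 without control library a, miR-7117-5p without control library b or CUMS library b, and miR-7240-5p without CUMS library a. A lone library was assumed to vary like the other group. The calls were 3 with median-of-ratios size factors, 2 at a fold above 2 or with at least 10 reads in 2 libraries, and 4 with no filter, which added miR-7031-5p. In none of these fits did a member pass after adjustment. The 41 members without overlap were 43 when reads were scaled by library totals in place of size factors. The 6 hairpins that fill an intron were 6 with exact ends and 7 within 5 bases, and the 119 precursors at intron 3′ ends were 115 and 120, alternatives of which those for the 119 were chosen after seeing the data. Of 23 named members with a ratio of the group means, 17 kept its sign under every alternative run and 6 did not. No paired analysis was possible because the columns carry no replicate numbers. With 2 libraries per group, the depth limits what can be said of members with few reads.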
